A study of Salmo salar with 6 samples.

Results

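LOC100136576, which the Atlantic salmon gene table lists with the synonym hbb, is the gene of a haemoglobin beta chain and is described here in the head kidney (HK). It is 1 of the 25460 genes of that table with a probe on the array, and 1 probe, printed as 1 spot on each array, was matched to it through its RefSeq accession. The gene was selected on its processed signal and its rank among all probes on these 6 arrays, so its level, its rank and its difference between the diets are given as a description, with no test.

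Haemoglobin is the oxygen carrier of red blood cells and is built of alpha and beta chains that each hold a haem group. Red blood cells of fish keep their nucleus and go on making transcripts in the blood. The HK is the main blood-forming organ of bony fish, in which red cells mature beside leukocytes, endocrine cells and, to a degree that differs between species and ages, renal tissue.

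Each of the 6 one-color arrays carried the Cy3-labeled cRNA of a single HK RNA pool. Of these pools, 3 came from Atlantic salmon (Salmo salar) juveniles fed a diet with 0.15% AQUOLIVE, an extract of olive fruit, and 3 from juveniles fed the control diet without it, all sampled after 133 days of feeding and labeled as weighing 252 g. The paper reports a lower mean weight with AQUOLIVE, without a significant difference, and describes the fish as smolts moved to seawater. All fish had been bathed in hydrogen peroxide and formaldehyde after transport, whatever their later diet. A pool joined RNA of 6 fish, 1 from each tank of a diet, so a difference between arrays of a diet is one between pools and not between single fish, and 3 pools for each diet limit the precision of every value. Every pool of a diet drew on the same tanks, so the SDs, SEs and p-values below do not include the spread between tanks.

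The arrays differed as a whole. Between 54.1% and 76.0% of probes were well above background on the AQUOLIVE arrays, against 42.5% to 60.9% on the control arrays, with the lowest share in control pool 3. Across RNA spike-ins of known amount, the slope of log signal on log dose was 1.05 to 1.08 on the AQUOLIVE arrays and 0.810 to 0.889 on the control arrays. Slide numbers and the order of scanning separated the arrays in the same way as the diets, so that for every value below the diet cannot be told apart from slide series or scanning order.

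On the scale of the processed signal, which Feature Extraction reports after subtracting background and correcting trends across a slide, haemoglobin beta gave 386761, 256511 and 409762 in AQUOLIVE pools 1, 2 and 3. It gave 108437, 67234 and 18095 in control pools 1, 2 and 3. All AQUOLIVE pools therefore lay above all control pools, with control pool 3 lowest by a wide margin. On the log2 scale the processed signal averaged 18.39 ± 0.37 in AQUOLIVE pools and 15.64 ± 1.34 in control pools (SD, n = 3 each), a difference of 2.76. This difference also holds the offset between whole arrays, because the median difference of all kept probes on that scale was 0.93.

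The spot was well above background on all 6 arrays and was marked neither as saturated nor as an outlier on any of them. The median signal of its pixels, before the trend correction, was 335694, 338110 and 337280 in AQUOLIVE pools 1, 2 and 3, against 101352, 66181 and 9769 in control pools 1, 2 and 3. These are 51.2%, 50.1% and 51.1% of the saturation value in the AQUOLIVE pools and 15.3%, 10.1% and 1.49% in the control pools. The trend correction multiplied the spot by 1.18, 0.852 and 1.21 on the AQUOLIVE arrays and by 1.07, 1.01 and 1.78 on the control arrays. Before it, the background-subtracted signals of the AQUOLIVE pools lay closer together and that of control pool 3 lay farther below the others. The spot was read from the low-gain scan on 5 arrays and from the high-gain scan in control pool 3.

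**Figure D1:**
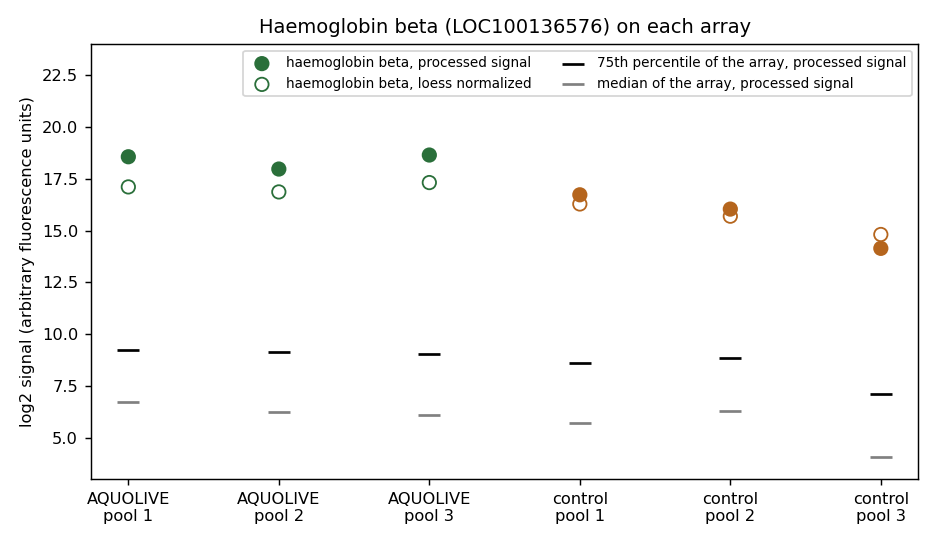
Log2 signal (y axis, arbitrary fluorescence units) of haemoglobin beta on each of the 6 arrays (x axis). Filled points are the processed signal, open points the loess normalized value, and bars the 75th percentile and the median of each array; the AQUOLIVE pools lie at 17.97 to 18.64 and the control pools at 14.14 to 16.73 on the processed scale.

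Ranked from the brightest of 42386 probes, the haemoglobin beta probe was at place 16, 34 and 13 in AQUOLIVE pools 1, 2 and 3. In control pools 1, 2 and 3 it was at place 58, 132 and 235. Even at its lowest place only 0.552% of probes were brighter. The median place over the 6 arrays was 46. A probe's brightness depends on its sequence as well as on its transcript, so the place is not an order of transcript abundance. Ranked by the uncorrected median signal, the places were 29, 24 and 25 in AQUOLIVE pools and 69, 126 and 372 in control pools.

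**Figure D2:**
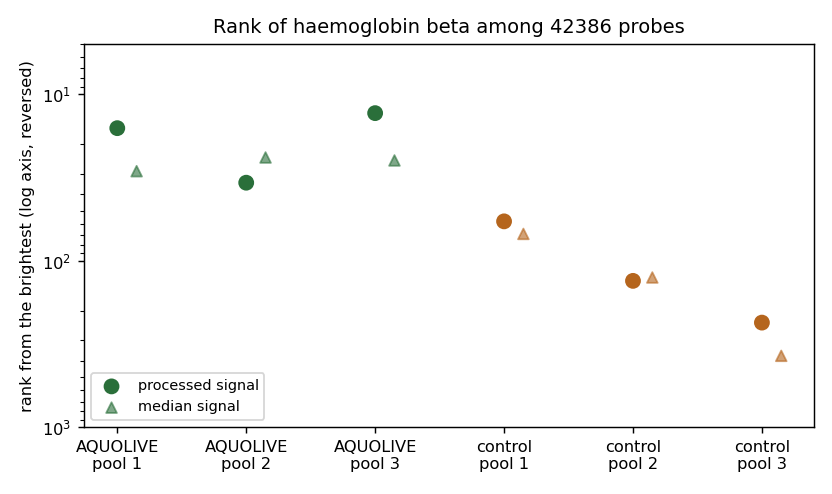
Rank of the haemoglobin beta probe among all non-control probes (y axis, log scale, brightest at the top) on each array (x axis). Circles use the processed signal and triangles the median signal; by the processed signal the AQUOLIVE pools are at places 13 to 34 and the control pools at places 58 to 235.

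The probes at the nearest places by median rank were those of rps20 and LOC106601074 just above and of rpl7 and an unnamed transcript model just below. The genes rps20 and rpl7 encode ribosomal proteins. After loess normalization, rps20 averaged 16.59 ± 0.01 in AQUOLIVE pools (n = 2) and 16.51 ± 0.09 in control pools (SD, n = 3). Likewise, rpl7 averaged 16.52 ± 0.12 in AQUOLIVE pools (n = 2) and 16.44 ± 0.52 in control pools (SD, n = 3). Neither was past limma's adjusted p threshold (0.855 and 0.919), and both had a higher mean in control pools under quantile normalization. On AQUOLIVE pool 2 both spots were marked as outliers and were left out. The unnamed model had normalized log2 values of 16.09, 16.41 and 16.16 in AQUOLIVE pools 1, 2 and 3, against 16.68, 16.79 and 17.66 in control pools 1, 2 and 3, with no overlap. Its log2 difference was -0.82 (SE 0.32, adjusted p = 0.257 in limma), with a positive sign in the deposited values.

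Loess normalization set each array against the mean of the control arrays along the range of intensities. Haemoglobin beta then had log2 values of 17.11, 16.86 and 17.32 in AQUOLIVE pools 1, 2 and 3, against 16.28, 15.69 and 14.81 in control pools 1, 2 and 3. The means were 17.10 ± 0.23 in AQUOLIVE pools and 15.60 ± 0.74 in control pools (SD, n = 3 each). The difference was 1.50 on the log2 scale, a 2.83-fold higher signal with AQUOLIVE. In descending order the values ran through AQUOLIVE pools 3, 1 and 2 and then control pools 1, 2 and 3. The spike-in slopes ran in the same order, with 1.08, 1.06 and 1.05 and then 0.889, 0.862 and 0.810. The part of this in the haemoglobin beta values was not tested. The gap between the lowest AQUOLIVE pool and the highest control pool was 0.58, next to a within-diet SD of 0.55 over both diets. Without control pool 3 the difference was 1.07, and without control pool 1 it was 1.86.

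A pool holds many cell types, and a change in the number of red cells cannot be told apart from a change in the haemoglobin RNA of each cell. The probe sequence was not used here, so binding of transcripts from near-identical haemoglobin copies was not tested.

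Over all 25826 kept probes, which cleared background well on 3 arrays or more, limma called 4 at an adjusted p under 0.05 (0.0155%). At an unadjusted p under 0.05, 2470 probes (9.56%) were higher with AQUOLIVE and 2219 (8.59%) were lower. Of the kept probes, 1033 (4.00%) had a log2 difference at least as large as that of haemoglobin beta, the gene itself included. Among the 250 brightest probes by median rank that count was 26, and their median log2 difference was 0.32, against -0.02 over all kept probes.

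The alpha chain, hba, followed the same order of diets. Its processed log2 signal was 17.89, 17.61 and 17.91 in AQUOLIVE pools 1, 2 and 3, against 16.23, 15.96 and 14.92 in control pools. On that unscaled signal the median difference of all kept probes was 0.93. The rank of hba was 83, 66 and 65 in AQUOLIVE pools and 119, 141 and 107 in control pools. The spot of AQUOLIVE pool 2 was marked as an outlier and was left out of the fit. Normalized, hba averaged 16.56 ± 0.11 in AQUOLIVE pools (n = 2) and 15.66 ± 0.11 in control pools (SD, n = 3). The log2 difference was 0.89 with an SE of 0.23, and it did not pass limma's threshold (adjusted p = 0.177). With the marked spot kept the difference was 0.83, and with quantile normalization it was 0.44.

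The other genes named as haemoglobin with a kept probe were hbae4 and hbae, which are named after embryonic alpha chains of zebrafish. Haemoglobin genes that the table lists by locus number only could not be recognised and may be missing here. The normalized log2 signal of hbae4 was 9.83, 9.94 and 9.87 in AQUOLIVE pools and 9.57, 10.10 and 10.40 in control pools. For hbae it was 6.21, 5.04 and 5.39 in AQUOLIVE pools and 5.57, 4.79 and 5.19 in control pools. Both sets of values overlapped between the diets. The hbae probe was dim, with a median rank of 21624, and was well above background on 5 arrays. The log2 differences were -0.14 for hbae4 (adjusted p = 0.781 in limma), a sign that turned under normexp, without detrending, in the deposited values and without control pool 3, and 0.36 for hbae (adjusted p = 0.606). Both genes of the table with the synonym hbb1, which lie on the same chromosome as LOC100136576, were matched to no probe and were not analysed here. Thus 0 of the 3 other probes named as haemoglobin passed the adjusted threshold, beside 0.0155% of all kept probes. Of the 3, 1, hba, was higher at an unadjusted p under 0.05 (33.3%, against 9.56% over all kept probes). That count was 0 with quantile normalization, without detrending and in a fit with the replicate number as a block. Of the other globins, the myoglobin gene (mb) and the neuroglobin genes were not kept. The globin X gene (xgb) had a log2 difference of -0.42 (adjusted p = 0.751 in limma). The xgb probe was dim, with a median rank of 27979, and was well above background on 3 arrays.

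In the gene table's order, LOC100136576 lies on chromosome ssa03 and hba on ssa06 of the assembly Ssal_v3.1. The 12 genes on either side of each were taken next, 24 for each, after that order had been seen. The table gives most of them a locus number only, with no name or description, so no role is stated for them. They lie outside the rule for named genes and are named here after their values were seen. The gene models of LOC106601074 and LOC106601072 lie within the span of LOC100136576, so signal may not separate these loci.

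Around LOC100136576, 14 of the 24 genes had a kept probe, and 4 of these were higher with AQUOLIVE at an unadjusted p under 0.05 (9.56% over all kept probes) and 0 were lower (8.59%). Around hba, 10 had a kept probe, of which 5 were higher and 1 was lower. None of them passed the adjusted threshold in limma, beside 0.0155% of all kept probes. The probes nearest to both genes were bright, with 14 of them among the 1000 brightest by median rank; the other kept neighbours had median ranks from 2095.5 to 22937.

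LOC106601074 had normalized log2 values of 17.18 and 17.33 in AQUOLIVE pools 1 and 3, against 15.90, 16.09 and 14.87 in control pools 1, 2 and 3. Control pool 3 was lowest, as for haemoglobin beta, and the diets did not overlap. Its log2 difference was 1.64 (SE 0.43, adjusted p = 0.178 in limma). LOC106601076 had 16.74, 17.08 and 16.93 in AQUOLIVE pools, against 15.24, 15.93 and 15.11 in control pools, a difference of 1.49 (SE 0.28, adjusted p = 0.129). Here the diets did not overlap either, and all 6 arrays gave a value. Every AQUOLIVE pool was above every control pool for 14.7% of all probes with a value on every array. LOC106601077 and LOC106601071 had differences of 1.36 and 0.77 (adjusted p 0.173 and 0.269).

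Beside hba, LOC106607372 had 16.95 and 17.09 in AQUOLIVE pools 1 and 3, against 15.51, 15.52 and 15.43 in control pools 1, 2 and 3. Its log2 difference of 1.53 (SE 0.23) had the lowest adjusted p of the neighbours in limma, 0.114. LOC106607373, LOC106594777 and LOC106607380 had differences of 1.59, 1.51 and 1.08 (adjusted p 0.129, 0.201 and 0.129). For all of these the AQUOLIVE pools with a value lay above all control pools. Only LOC106607380 of them had a value in AQUOLIVE pool 2, and 2 pools lie apart from 3 more readily than 3 do. Of the 4 bright neighbours of both genes with a value on every array, 2 were higher in every AQUOLIVE pool and 0 lower, beside 14.7% and 15% of all such probes.

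The 6 other bright neighbours did not share this difference. LOC106601073, LOC106601078 and LOC106607371 had log2 differences of 0.06, 0.26 and 0.12, and LOC106607383, LOC106601051 and LOC106601072 had -0.28, -0.41 and -1.05. Their adjusted p lay between 0.282 and 0.900. The value of LOC106601072 was largest in control pool 3, where its normalized log2 signal was 19.30, and the difference was -0.63 without that pool and -0.28 with 75th percentile scaling. On their brightest array the median signals of these 6 probes reached 72.0% to 97.9% of the saturation value, while those of the 8 probes with differences of 0.77 to 1.64 reached 44.4% to 70.05%. The part of this in the differences was not tested. Of the 14 bright neighbours, 10 were marked as outliers on AQUOLIVE pool 2 and 0 on every other array, against 0.606% of all spots on AQUOLIVE pool 2; the haemoglobin beta spot was not among them. LOC106601072, with a median rank of 1.5, and other neighbours here also belong to the most abundant HK signals that lack a gene symbol.

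**Figure D3:**
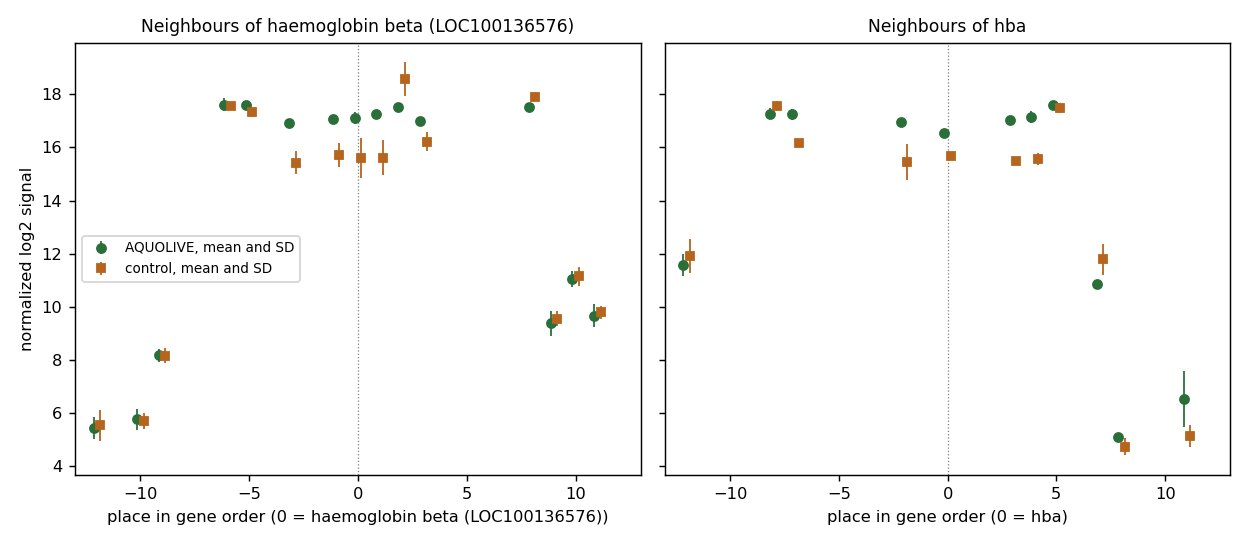
Normalized log2 signal (y axis, mean and SD of up to 3 pools for each diet) of genes with a kept probe by place in gene order (x axis), around LOC100136576 and around hba, each at place 0. Haemoglobin beta stands at 17.10 with AQUOLIVE and 15.60 in control pools, between bright neighbours of which some differ in the same direction and some do not.

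The genes that make, feed and carry haemoglobin were taken from 6 lists written by role. Together they had 52 kept genes, with a median log2 difference of 0.02, beside -0.02 over all kept probes. At the adjusted threshold limma called 0, beside 0.0155% of all probes, and 3 were higher and 3 lower at an unadjusted p under 0.05 (5.77% each, against 9.56% higher and 8.59% lower over all kept probes). The methods' unpaired test also called 0, with 9 of the 52 before adjustment, beside 4070 of all 25826 kept probes. Every AQUOLIVE pool was above every control pool for 9 of the 52 (17.3%) and below for 8 (15.4%), next to 14.7% and 15% over all probes with a value on every array.

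Of the haem synthesis genes, 9 were kept and 0 passed the adjusted threshold in limma, beside 0.0155% of all kept probes. The gene alas2 encodes the erythroid enzyme of the rate-limiting first step. Its normalized log2 signal was 14.68, 14.99 and 15.06 in AQUOLIVE pools 1, 2 and 3, against 14.93, 15.33 and 15.02 in control pools 1, 2 and 3. These values overlapped, and the difference of -0.18 (SE 0.23, adjusted p = 0.668) changed sign with 75th percentile scaling and with quantile normalization. The mitochondrial porphyrin transporter gene tmem14ca had a difference of -0.34 (adjusted p = 0.426), which turned sign with quantile normalization, hmbsa, which takes part in building the porphyrin ring, 0.32 (adjusted p = 0.618), and ppox, an enzyme of a late step, -0.06 (adjusted p = 0.877). Of the 9, 2 were higher (22.2%, against 9.56% over all kept probes) and 1 lower (11.1%, against 8.59%) at an unadjusted p under 0.05. Those higher were cpox and hmbsb, with differences of 0.99 and 0.81. The lower one, at -1.33, was slc25a38b, a mitochondrial carrier gene linked to the glycine supply of haem synthesis. Its probe was dim, with a median rank of 19233.5, and was well above background on 5 arrays. The genes cpox, hmbsb and slc25a38b were named after their values were seen, and their adjusted p were 0.139, 0.182 and 0.253.

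Of the iron genes, 12 were kept, and 0 were called and 0 had an unadjusted p under 0.05 in limma. Over all kept probes 0.0155% were called, and 9.56% were higher and 8.59% lower at the unadjusted threshold. The ferritin heavy chain gene LOC100194637 (synonym frih), whose protein stores iron, had 16.26, 16.65 and 16.23 in AQUOLIVE pools and 15.99, 16.17 and 15.68 in control pools. The diets did not overlap, and the difference was 0.43 (SE 0.24, adjusted p = 0.372 in limma). A dimmer gene with the same synonym, fth1b, named here for that reason, differed by -0.04 (adjusted p = 0.969 in limma), and its values overlapped. In this list every AQUOLIVE pool was above every control pool for 2 of 12 genes (16.7%) and below for 1 (8.33%). Over all probes with a value on every array these shares were 14.7% and 15%. The ferritin middle subunit gene LOC100136565 differed by 0.40 (adjusted p = 0.518), the transferrin receptor gene tfr1a, which takes iron into erythroid cells, by 0.03 (adjusted p = 0.972), and the transferrin gene tfa by -0.57 (adjusted p = 0.351). Without control pool 3, tfr1a differed by -0.37.

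Of the genes of the red cell membrane and its skeleton, 6 were kept and none had an unadjusted p under 0.05 in limma. Over all kept probes 9.56% were higher and 8.59% lower at that threshold. The Rh-associated glycoprotein gene rhag, a gas and ammonium channel of red cells, had 13.80, 13.85 and 14.03 in AQUOLIVE pools and 13.56, 13.84 and 12.68 in control pools, a difference of 0.54 (SE 0.34, adjusted p = 0.410). Without control pool 3 it was 0.17. The actin-capping gene tmod4 differed by -0.30 (adjusted p = 0.436 in limma). The ankyrin gene ank1a, whose product ties membrane proteins to the skeleton, differed by -0.68 (adjusted p = 0.432 in limma). The ank1a probe was dim, with a median rank of 22405. The Rh protein gene rhd varied within the diets, with 10.40, 12.71 and 10.65 in AQUOLIVE pools and 12.35, 12.21 and 10.92 in control pools.

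Of the erythroid regulators, 11 were kept. The erythropoietin receptor gene epor, which passes the signal for red cell survival, had 13.03, 12.96 and 13.22 in AQUOLIVE pools and 12.80, 13.05 and 13.44 in control pools. The groups overlapped, and the difference was -0.03 (SE 0.24, adjusted p = 0.955 in limma), with a positive sign after quantile normalization. The erythroid transcription factor genes gata1 and nfe2 differed by -0.19 and 0.07 (adjusted p 0.637 and 0.869), and lmo2, a partner of such factors, by 0.44 (adjusted p = 0.307). The gene gata1 is also listed with the synonym gata3, so which of these factors its probe reads is uncertain here. At an unadjusted p under 0.05, 0 of the 11 were higher and 2 lower (18.2%, against 8.59% over all kept probes). These were the kinase genes jak2b and pim1, with differences of -1.30 and -0.87 (adjusted p 0.174 and 0.175), named because of those values. The gene pim2, also listed with the synonym pim1, differed by 0.09 (adjusted p = 0.803 in limma). The jak2b probe was well above background on 5 arrays, with a median rank of 20783.5. In mammals JAK2 passes on the erythropoietin signal.

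Of the redox and gas transport genes, 9 were kept, and none had an unadjusted p under 0.05 in limma. The shares over all kept probes were 9.56% higher and 8.59% lower. The peroxiredoxin gene prdx1 and the thioredoxin gene txnb, which remove peroxide and reduce proteins, differed by 0.03 and -0.03 (adjusted p 0.933 and 0.949), and the sign of both turned under several settings. The glutathione peroxidase gene gpx1a differed by 0.36 (adjusted p = 0.366) and the glutathione reductase gene gsr by 0.16 (adjusted p = 0.725). The clearance genes had 5 kept members. At an unadjusted p under 0.05, 1 was higher (20%, against 9.56% over all kept probes) and 0 were lower (against 8.59%). The haem transporter gene slc48a1a was higher at an unadjusted p under 0.05, with 10.08, 9.84 and 10.14 in AQUOLIVE pools, against 9.27, 9.47 and 9.36 in control pools, and a difference of 0.66 (SE 0.20, adjusted p = 0.196). The haptoglobin gene hp, whose protein binds free haemoglobin, and the haemopexin genes hpxa and hpxb, whose proteins bind free haem, differed by -1.46, -1.21 and -1.74 (adjusted p 0.376, 0.641 and 0.550). Their spread between pools was large. Here hpxb had 2.22, 7.99 and 3.09 in AQUOLIVE pools and 4.76, 7.32 and 6.44 in control pools, with pool 2 highest in both diets. The hpxb probe was dim, with a median rank of 19796.5, and was well above background on 4 arrays.

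**Figure D4:**
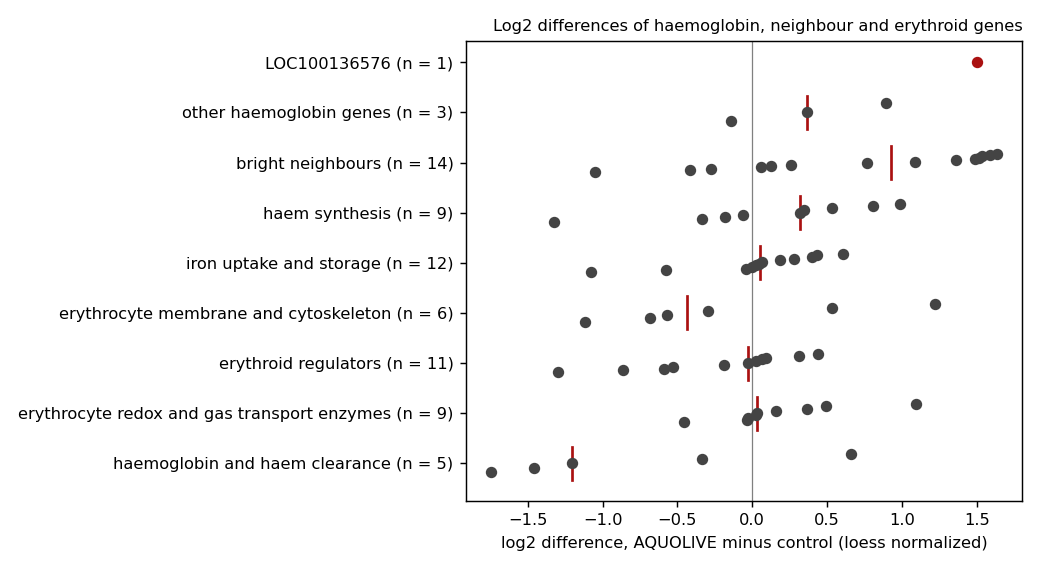
Log2 difference (x axis, AQUOLIVE minus control, loess normalized) of haemoglobin beta and the other genes named as haemoglobin (y axis). The bright neighbours in gene order and the 6 erythroid lists are also shown. Points are genes and vertical bars list medians; haemoglobin beta lies at 1.50, and the list medians of the erythroid genes run between -1.21 and 0.32.

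Marker genes of the other cells of the HK gave 35 kept genes in 7 lists. In limma 0 of these were called at the adjusted threshold, beside 0.0155% of all kept probes. At an unadjusted p under 0.05, 3 were higher (8.57%, against 9.56% over all kept probes) and 5 lower (14.3%, against 8.59%). The summed normalized signal of the macrophage markers (4 kept genes) ranged from 37423 to 41714 in AQUOLIVE pools and from 43766 to 56872 in control pools. That of the thrombocyte markers (2 kept genes) ranged from 3293 to 3703 in AQUOLIVE pools and from 4205 to 5553 in control pools. The sums of both lists were thus lower in every AQUOLIVE pool, but a sum is carried by its brightest probes. Of the 4 macrophage genes, 3 had a negative log2 difference, and the list median was -0.44. In every AQUOLIVE pool 1 of the 4 was higher (25%) and 2 were lower (50%). Over all probes with a value on every array these shares were 14.7% and 15%. With 75th percentile scaling and with quantile normalization 2 of 4 were positive. The median was 0.49 in the deposited values, where that of the thrombocyte markers (-0.45, 2 of 2 negative) also turned, to 0.77; 1 of these 2 was positive under normexp, without detrending, without AQUOLIVE pool 2 and without control pool 3. The sums of the B cell and plasma cell, T cell, neutrophil, interrenal and chromaffin, and renal tubule lists overlapped between the diets. A sum holds only genes with a value on every array. These were 8 of the 10 kept neutrophil genes and 4 of the 6 interrenal and chromaffin genes. The neutrophil genes cyba and mpx and the interrenal genes star and hsd3b1 were therefore not in these sums. Their log2 differences were -0.38, -0.90, 0.18 and -0.09 (adjusted p 0.488, 0.173, 0.798 and 0.870 in limma). Of the 10 kept neutrophil genes 7 had a negative log2 difference, with a list median of -0.21. With 75th percentile scaling 5 of the 10 were negative. The T cell genes had a median log2 difference of 0.68, with 4 of 5 positive, 2 of 5 higher at an unadjusted p under 0.05 (40.0%, against 9.56% over all kept probes), and 3 of 5 higher in every AQUOLIVE pool (14.7% over all probes with a value on every array); 1 of 5 was lower in every AQUOLIVE pool. Without control pool 3 their median was 0.34. Their r with haemoglobin beta ran from -0.95 to 0.95, with a median of 0.88. The lowest r was that of LOC100136514 (synonym cd3z), the brightest kept T cell probe, named after its value was seen. The median r of the other marker lists ran from -0.75 (B cell and plasma cell) to 0.07 (renal tubule). The interrenal marker cyp17a1 and the renal markers lrp2a and lrp2b were not well above background on any array. The part of these lists in the haemoglobin values was not tested.

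The genes whose normalized signal followed haemoglobin beta most closely over the 6 arrays were LOC100380640, sla2b, LOC106613476, argi1 and a gene known by a clone name only, with Pearson r between 0.995 and 0.996. All share the arrays and the 2 diets with it, and 525 of 25229 probes with a value on every array had r of at least 0.95. The arginase gene argi1 had 8.46, 7.95 and 8.56 in AQUOLIVE pools and 6.77, 5.85 and 3.61 in control pools, in the same order of control pools as haemoglobin beta. In control pool 3 its processed log2 signal was only 2.00, at place 37983 of 42386 probes. The probes of argi1, sla2b and LOC106613476 were well above background on 5 arrays and that of the clone-named gene on 4. The gene sla2b had 8.43, 8.34 and 8.46 in AQUOLIVE pools and 7.95, 7.56 and 7.10 in control pools. The median r over the 9 haem synthesis genes was 0.80, against -0.06 over all these probes. Single genes of the list ran from -0.97 to 0.90. The list's median log2 difference was 0.32, with 5 of 9 positive. Without control pool 3 it was -0.05, with 4 of 9 positive. Every r here rests on the values by which haemoglobin beta was selected, so it is a description and no test. The other erythroid lists had median r between -0.54 (haemoglobin and haem clearance) and 0.46 (iron uptake and storage).

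The difference of haemoglobin beta varied with the processing. It was 1.90 after 75th percentile scaling, 1.60 after quantile normalization and 1.76 from signals without the trend correction. It was 2.97 in the deposited log2 table, whose arrays share no common scale, so that the median of all probes there was 0.98.

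**Figure D5:**
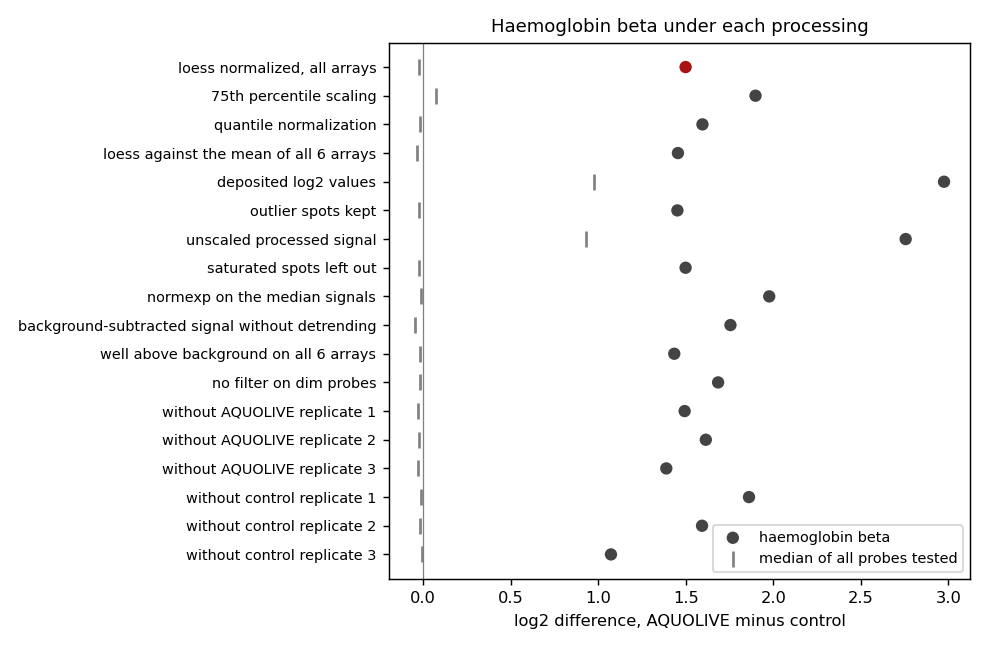
Log2 difference of haemoglobin beta (x axis, AQUOLIVE minus control) under each processing or left-out array (y axis). Points are haemoglobin beta and grey bars the median of all probes tested; haemoglobin beta runs from 1.07 without control pool 3 to 2.97 in the deposited values, where the median of all probes is 0.98.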

How the data were processed

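The authors scanned 6 one-color Agilent arrays and deposited, for each spot, the intensity as Feature Extraction (10.7.3.1 in the file headers) gave it, with flags for outliers, saturation, low-gain scans and signal above background, which are not measurements. A deposited table of log2 values was found to hold log2 background-subtracted intensity for all 6 arrays (tolerance 1e-06). The authors' fold changes and p-values were not used.

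In R 4.3.3, log2 processed signals of non-control spots were taken, spots marked as outliers were dropped, and a probe was kept if 3 or more arrays showed it well above background. Log2 ratios of an array to the averaged control arrays were flattened along intensity by a robust loess of span 0.3 with 4 iterations, as the methods name a Lowess but neither reference nor span. limma 3.58.1 compared the diets, two-sided, with Benjamini-Hochberg adjustment over all kept probes at 0.05. The fit was tested on simulated data. Figures were drawn with matplotlib 3.10.9. The number of arrays limits the precision.

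Probes were named through RefSeq accessions in a RefSeq table (Ssal_v3.1). There were 42386 probes, 40932 with an accession, of which the table held 25641. List genes were matched by symbol, synonym or copy suffix; 4 matches that are genes of their own were left out. The brightest probe stands for a gene. Named are every kept probe of a gene named as haemoglobin and up to 4 genes of highest mean signal of each other list. Also named are the 5 genes most alike by Pearson r and the 2 probes on either side by median rank. Exceptions are marked in the text. The members and lists were chosen with earlier results of these data known.

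Alternatives covered scaling, background correction, outlier spots, the filter, the methods' t-test, a replicate block and leaving out each array. The normexp alternative had been planned on mean signals; median signals were used in their place.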

Additional observations from a re-analysis of the deposited data

How the results depend on the processing

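Of the alternatives run, only the unscaled values moved the difference of haemoglobin beta beyond the spread between pools, to 2.76 for processed signals and 2.97 for the deposited log2 values; leaving out saturated spots could change nothing, as 0 spots were saturated. Leaving out 1 array gave 1.07 to 1.86, and median ranks of 34 to 58. Of 25826 probes, limma called 4; the count was 16 with 75th percentile scaling (68.9% of probes at an unadjusted p under 0.05 higher, against 52.7%), 2 with quantile normalization, 30 among 16663 probes well above background on all 6 arrays, 1 without a filter, 9 with normexp on the median signals (68.3% higher), and 0 with the deposited values (98.7% higher), without detrending, with the methods' t-test (4070 before adjustment) and with the replicate block (4160). Leaving out 1 array gave 0 to 60 calls, 60 without AQUOLIVE pool 2. Same-numbered pools of the diets deviated from their diet means with r = 0.21, -0.06 and 0.03. Differently numbered pools gave r from -0.23 to 0.19, and so few pools cannot decide whether a shared number stands for a pairing. The other probes named as haemoglobin and the erythroid lists had 0 calls under every alternative run. The normexp, undetrended and median-signal alternatives, and both filters for haemoglobin beta, were chosen after seeing the data.

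Of 55 other log2 differences, 26 kept their direction under every alternative run. The others turned sign as follows, and the cause was not tested. With 75th percentile scaling alas2 gave 0.051, txnb 0.073, LOC106601051 0.30 and LOC106607383 0.26. Quantile normalization gave 0.11 for alas2, 0.036 for tmem14ca, 0.12 for epor, 0.31 for txnb, -0.47 for rps20 and -0.55 for rpl7. Normexp gave 0.19 for hbae4, 0.56 for epor, -0.032 for prdx1, 0.26 for txnb, 0.063 for LOC106601051 and 0.19 for LOC106607383. Without detrending hbae4 was 0.11, epor 0.53, prdx1 -0.14, txnb 0.18, gpx1a -0.0100 and xgb 0.057. In the deposited values, where the median of all probes was 0.98, hbae4 was 1.01, alas2 0.64, tmem14ca 0.49, ppox 0.41, tfa 0.34, tmod4 0.58, rhd 0.26, ank1a 0.20, epor 1.40, gata1 0.67, txnb 1.14, hpxa 0.28, xgb 1.14, the unnamed transcript model below haemoglobin beta by rank 0.62, LOC106601051 1.44, LOC106601072 1.04, LOC106607383 1.34, slc25a38b 0.19 and pim1 0.13. With outlier spots kept tfr1a was -0.0016 and LOC106607371 -0.057. With no filter txnb was 0.021, and with probes above background on all 6 arrays LOC106601073 was -0.049. Leaving out 1 array gave -0.082 to 0.19 for LOC106601073, -0.18 to 0.14 for epor, -0.032 to 0.26 for gsr, -0.36 to 0.047 for hbae4, -0.048 to 0.56 for hmbsa, -2.46 to 0.036 for hpxa, -0.015 to 0.13 for nfe2, -0.13 to 0.025 for ppox, -0.0033 to 0.13 for prdx1, -0.23 to 0.28 for rpl7, -0.37 to 0.30 for tfr1a, -0.18 to 0.10 for txnb and -1.40 to 0.045 for xgb.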
